A study of Homo sapiens with 6 samples.

Results

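The enzymes described here are drug- and carbonyl-metabolising genes that the transcription factor NRF2 drives, together with NRF2 itself and its inhibitor. They are the aldo-keto reductases AKR1B1, AKR1B10, AKR1C1, AKR1C2 and AKR1C3, the aldehyde dehydrogenases ALDH1A1 and ALDH3A1, the quinone reductase NQO1, and the genes NFE2L2, which encodes NRF2, and KEAP1. Members were all probe sets whose array annotation gave 1 of these 10 symbols and no other. Each probe set pools several short probes aimed at the same transcript, or at a few that resemble each other. Of 54613 probe sets, 19 met this rule and covered 9 of the 10 genes. No probe set of AKR1B1 was named in the annotation used here, so AKR1B1 was not analysed here.

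The arrays compared A549 cells, a human lung adenocarcinoma line, given a short interfering RNA duplex against NME2 with A549 cells given control duplexes, 3 arrays per group. Silencing was transient, no other agent or allele separated the groups, and no source used here gave the time between transfection and harvest. The arrays of a group are described as biological replicates but not as separate cultures, so the p-values rest on a spread that may be partly technical. The NME2 probe set, which also carries the read-through transcript NME1-NME2, had signals of 1920, 3676 and 3216 in NME2-depleted arrays and of 17862, 19389 and 21044 in control arrays. Of 6 epithelial markers the keratins were bright on every array, from KRT19 at 2578 to 2988 to KRT18 at 27676 to 32107. CDH1 lay between 2026 and 2600, and EPCAM, the dimmest, between 380.9 and 836.9. EPCAM and CDH1 were higher in NME2-depleted arrays without overlap, by 0.71 and 0.21 on the log2 scale. KRT8 was lower without overlap, at -0.24, and 0 of the 6 had a limma adjusted p under 0.05. The 4 leukocyte markers found lay between 4.9 and 349.5, with PTPRC the dimmest and CD14, at 191.9 to 349.5, the brightest. The 5 alveolar type II markers found summed to 497.8 to 667 per array, with SFTPC between 41.5 and 153.8 and NKX2-1 between 19.3 and 91.4.

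In most cells KEAP1, an adaptor of the CUL3 ubiquitin ligase, keeps NRF2 protein low by marking it for degradation. When KEAP1 is inactive, NRF2 accumulates, pairs with small MAF proteins and binds antioxidant response elements near genes for detoxification and antioxidant defence. A549 cells carry a mutated KEAP1 and are a standard example of a cell with constantly active NRF2, known for very high levels of aldo-keto reductases and NQO1. Because NRF2 is controlled mainly as a protein, its transcript and its activity need not move together.

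The AKR1C genes are similar copies that lie next to each other, in the order AKR1C1, AKR1C2, AKR1C3 among protein-coding genes of the GRCh38.p14 assembly. AKR1C3 was not compared with the other 2 here. How alike AKR1C1 and AKR1C2 are is visible in the 100 bases before their RefSeq start sites, shown as an example. The stretches are chr10:4963315-4963414, plus strand, for AKR1C1 and chr10:5003858-5003957, minus strand, for AKR1C2. These bases lie outside the transcripts, and probe or transcript sequences were not compared here. In the 300-base windows of the 2 genes, aligned without gaps, 264 of 296 bases (89.2%) were identical. Capitals mark the longest run the 2 stretches share, 95 bases, within a shared run of 245 bases in the 300-base windows.
AKR1C1: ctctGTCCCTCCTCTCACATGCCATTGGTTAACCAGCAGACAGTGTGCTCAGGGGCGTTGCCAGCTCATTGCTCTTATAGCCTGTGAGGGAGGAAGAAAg
AKR1C2: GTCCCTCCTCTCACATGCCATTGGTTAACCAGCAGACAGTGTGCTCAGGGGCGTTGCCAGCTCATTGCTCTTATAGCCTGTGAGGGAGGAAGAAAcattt

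A core of the antioxidant response element, TGACNNNGC, was searched on both strands of windows from 250 bases before to 50 bases after each RefSeq start site (GRCh38.p14). Of all 35116 windows, 13.3% held it. Windows were found for 8 of the 10 genes, 12 in all, and 1 of the 12, at the inner start site of KEAP1, held it. That window had 2 matches, TGACACGGC at chr19:10502817-10502825, beginning 54 bases before the start, and GCTTAGTCA at chr19:10502794-10502802, beginning 31 bases before it and matching on the opposite strand. A match is a description of letters and not of a bound site, and elements farther upstream were not searched.

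No member probe set passed the threshold after NME2 silencing. Of the 19, 18 passed the filter on dim signals and were tested, and 0 were higher and 0 lower (limma adjusted p under 0.05), against 0.396% of all 27307 tested probe sets, 0.278% of which were called in the lower direction. At an unadjusted p under 0.05 limma gave 3 of the 18, against 12.9% of all tested. The plain test of group means listed under the alternatives gave 0 members after adjustment, but also 0 of all tested probe sets. The members' 0 in that test therefore does not set them apart. Limma adjusted p-values of the members lay between 0.168 and 0.997. The mean was lower in NME2-depleted arrays for 12 of the 18, against 47.5% of all tested, and the median log2 difference (NME2-depleted minus control) was -0.06, against 0.01 over all tested probe sets. Both depended on single arrays. Without NME2-depleted replicate 1 the median was 0.02 and 8 of 18 means were lower, and without control replicate 1 these were -0.15 and 17. The median was -0.13 without NME2-depleted replicate 3 and -0.02 without control replicate 2 or 3. Several of these probe sets measure the same or near-identical transcripts and cannot be counted as separate genes.

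The fit was precise for the bright members. Of the 18, 14 had signals of at least 1354 on every array, and their differences lay between -0.26 and 0.08 with standard errors (SE) from 0.07 to 0.12. The outer limits of their single 95% intervals were -0.43 and 0.34, which correspond to a 1.35-fold decrease and a 1.27-fold increase in signal. These intervals rest on the spread between arrays. Whether such bright signals change in proportion to the transcripts was not tested. The other 4, with signals from 55.1 to 718.9, had SEs from 0.25 to 0.33 and intervals reaching a 2.02-fold decrease and a 2.09-fold increase, so their differences were known less precisely.

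**Figure D1:**
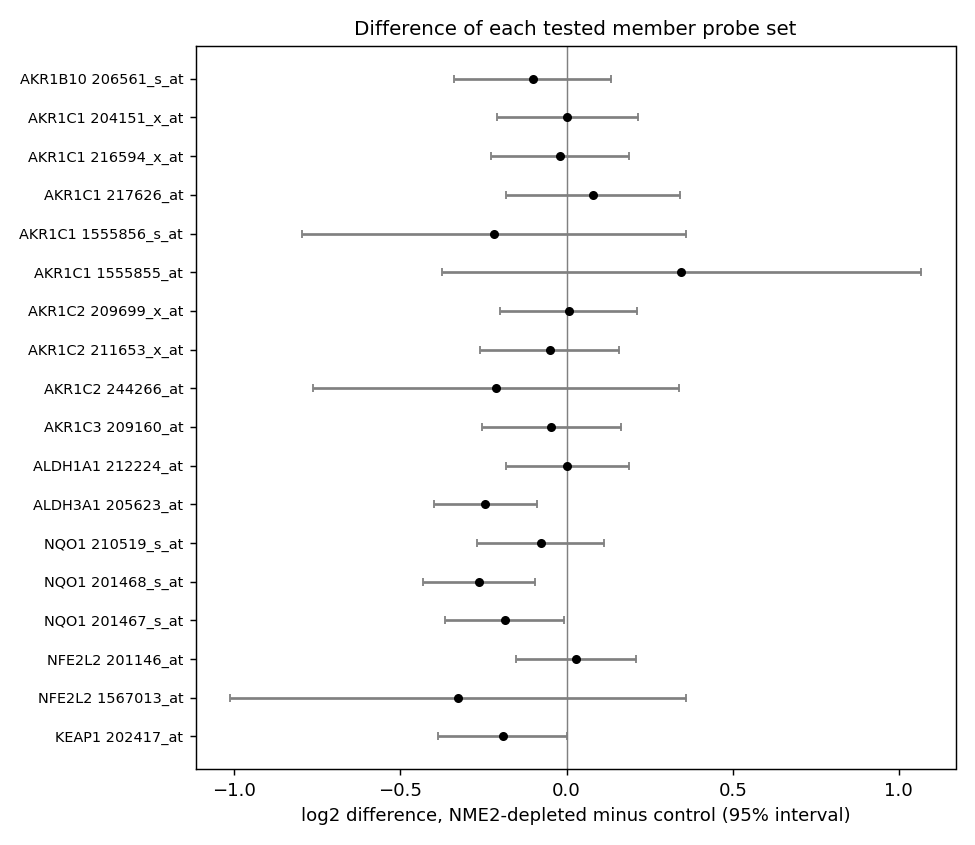
Log2 difference, NME2-depleted minus control, of each of the 18 tested member probe sets on the horizontal axis, with 1 probe set per row. Points are limma estimates from 3 arrays per group and bars are 95% intervals. Intervals of 15 of the 18 include 0, and those of ALDH3A1 and of 2 of the 3 NQO1 probe sets lie below it.

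AKR1B10 reduces retinal and other carbonyls and is a common marker of NRF2 activity in lung cancer. Its probe set (206561_s_at) gave signals of 30931, 36684 and 40562 in NME2-depleted arrays and of 33669, 40917 and 41316 in control arrays. The groups overlapped, and replicate 1 was the lowest array in each. On the log2 scale the depleted mean differed from the control mean by -0.10 (SE 0.11, limma adjusted p = 0.74). The sign of this small difference rested on NME2-depleted replicate 1, without which it was 0.0040.

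AKR1C1, AKR1C2 and AKR1C3 reduce steroids, prostaglandins and aldehydes, and AKR1C3 also makes testosterone and is a drug target in hormone-dependent cancers. The brightest AKR1C1 probe set (204151_x_at) had 24447, 27210 and 30669 in NME2-depleted arrays and 24517, 27537 and 30126 in control arrays. The 2 groups covered almost the same range, and the log2 difference was 0.0015 (SE 0.10, adjusted p = 0.997). For AKR1C2 the brightest probe set (209699_x_at) had 25507, 27722 and 32311 in NME2-depleted arrays and 25797, 28568 and 30604 in control arrays, which differed by 0.0062 on the log2 scale (SE 0.09, adjusted p = 0.988). AKR1C3 (209160_at) had 28047, 31838 and 34538 against 28547, 34512 and 34428 in control arrays, with a log2 difference of -0.05 (SE 0.10, adjusted p = 0.883). Each group of each gene thus had its lowest signal in replicate 1, and no group stood clear of the other.

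Values for AKR1C1 and AKR1C2 could not be separated with certainty. The maker's suffix _x_at marks probes that may bind other transcripts, and the brightest probe sets of both genes carry it. The 4 such AKR1C probe sets deviated from their own means by nearly the same amount on every array. The widest gap was 0.09 on the log2 scale. Bright probe sets of other genes, such as AKR1C3, followed a similar course over the arrays. The small gap therefore cannot show whether probes bound both transcripts. AKR1C1 has 1 probe set without a suffix for shared probes that was bright, 217626_at, at 3120, 4156 and 4191 in NME2-depleted arrays and 3160, 3864 and 3779 in control arrays. Here the depleted mean was the higher one, by 0.08 on the log2 scale (SE 0.12, adjusted p = 0.83), although the groups overlapped. The bright _x_at probe set 211653_x_at of AKR1C2 had a difference of -0.05 and 216594_x_at of AKR1C1 one of -0.02.

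The dimmer AKR1C probe sets disagreed in direction. AKR1C2 244266_at had 381, 590.3 and 540.1 in NME2-depleted arrays and 365.9, 718 and 718.9 in control arrays, a log2 difference of -0.21 (SE 0.25, adjusted p = 0.774). It was -0.54 without control replicate 1 and -0.023 without NME2-depleted replicate 1. The 2 dimmest AKR1C1 probe sets had differences of -0.22 (1555856_s_at, SE 0.26) and 0.35 (1555855_at, SE 0.33), and the second of these rested on NME2-depleted replicate 3, at 127, while the other 2 depleted arrays had 76.6 and 69.9. Without that array it was 0.0802. For 1555856_s_at the difference ran from -0.38 to -0.032 with 1 array left out. All 3 of these overlapped between groups.

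ALDH1A1 oxidises retinal to retinoic acid and is used as a marker of tumour-initiating cells. Its probe set (212224_at) had 24299, 26620 and 28067 in NME2-depleted arrays and 23451, 27869 and 27625 in control arrays. The means were close, with a log2 difference of 0.0027 (SE 0.08, adjusted p = 0.994, 95% interval -0.18 to 0.19).

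ALDH3A1 oxidises aromatic and fatty aldehydes from lipid peroxidation. Its probe set (205623_at) had 13482, 14185 and 14728 in NME2-depleted arrays and 15968, 16273 and 18030 in control arrays, which is 14131 ± 624.5 against 16757 ± 1113 (SD, n = 3). Every depleted array lay below every control array. The log2 difference was -0.24 (SE 0.07, 95% interval -0.40 to -0.09), and it missed the threshold over all probe sets (limma adjusted p = 0.168). Quantile normalization of the arrays moved it past the threshold, at a difference of -0.24 (adjusted p = 0.0328), whereas adjusted p-values without 1 array at a time ran from 0.188 to 0.357. An exact two-sided permutation test gave p = 0.1, the smallest possible with 3 against 3 arrays.

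NQO1 reduces quinones with both electrons at once and so avoids reactive semiquinones. It had 3 bright probe sets, all with a lower mean in NME2-depleted arrays and of unequal size. The brightest (210519_s_at) had 22336, 24597 and 26331 in NME2-depleted arrays and 22937, 27376 and 27049 in control arrays, overlapping, with a log2 difference of -0.08 (SE 0.09, adjusted p = 0.76). The next (201468_s_at) had 17292, 20555 and 17325 against control signals of 22037, 22174 and 21830. Its control arrays were nearly level and lay above all depleted arrays, of which replicate 2 was the highest. This probe set had the largest decrease among the bright members, at -0.26 on the log2 scale (SE 0.08, 95% interval -0.43 to -0.10, adjusted p = 0.172).

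The remaining NQO1 probe set (201467_s_at) had 11877, 13679 and 13649 in NME2-depleted arrays and 13649, 15946 and 15014 in control arrays. NME2-depleted replicates 2 and 3 were level with control replicate 1, and the log2 difference was -0.19 (SE 0.08, adjusted p = 0.368). Leaving out 1 array at a time kept the sign of all 3 NQO1 probe sets, with differences from -0.16 to -0.014 for 210519_s_at, the smallest without NME2-depleted replicate 1, from -0.35 to -0.22 for 201468_s_at and from -0.25 to -0.12 for 201467_s_at. The 3 probe sets were not tested against each other.

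Groups that did not overlap were thus seen for 2 of the 18 tested probe sets, those of ALDH3A1 and NQO1 201468_s_at, both lower in NME2-depleted arrays. This compares with 18.6% of all tested probe sets without overlap in either direction. RNA quality, read from ACTB as the signal at its 3' end over that at its 5' end, gave ratios of 1.33, 1.34 and 1.40 in NME2-depleted arrays and 1.20, 1.30 and 1.23 in control arrays. The same ratio for GAPDH overlapped, at 1.01, 0.985 and 1.06 in NME2-depleted and 0.993, 0.97 and 1.02 in control arrays. Summed signals of 6 fibroblast markers were 832.8 to 978 in NME2-depleted and 626.3 to 836.9 in control arrays, with 0 of 3 tested markers past the threshold. The part of either in these differences was not tested.

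The transcripts of the regulators themselves were measured too. NFE2L2 (201146_at) had 6497, 7576 and 6951 in NME2-depleted arrays and 6261, 7309 and 7038 in control arrays, overlapping, with a log2 difference of 0.03 (SE 0.08, adjusted p = 0.918, 95% interval -0.15 to 0.21). Its dim probe set 1567013_at had 119.2, 110.5 and 78.9 against control signals of 136.3, 178.9 and 83.9 and a difference of -0.33 (SE 0.31, adjusted p = 0.715), which ran from -0.62 to -0.078 with 1 array left out. The dimmest, 1567015_at, had signals between 2.6 and 15.3 and was not tested. KEAP1 (202417_at), the gene whose inner window held the 2 element matches above, had 1354, 1428 and 1506 in NME2-depleted arrays and 1495, 1686 and 1724 in control arrays. Only NME2-depleted replicate 3 reached above the lowest control array, and the log2 difference was -0.19 (SE 0.09, adjusted p = 0.391, 95% interval -0.39 to 0.0020).

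**Figure D2:**
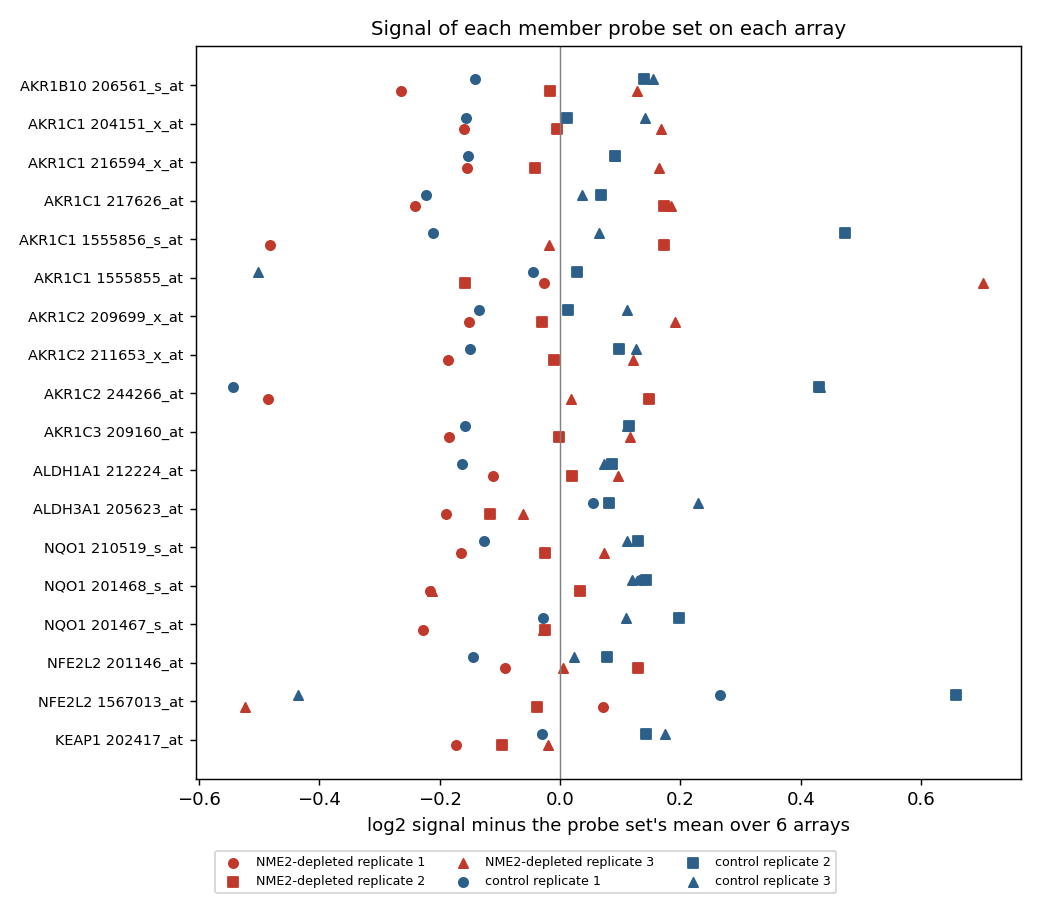
Signal of each tested member probe set on each of the 6 arrays, as log2 signal minus the mean of that probe set over all arrays (horizontal axis). Red is NME2-depleted, blue is control, and circles, squares and triangles are replicates 1, 2 and 3. In 15 of 18 rows the circle is the lowest point of both colours, and in ALDH3A1 and NQO1 201468_s_at all red points lie left of all blue ones.

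Arrays of the same group also differed among themselves, with replicate 1 the lowest for most members. Of the 18 tested member probe sets, 15 had their lowest signal in replicate 1 in both groups, and this held for 13 of the 14 bright ones. Over all tested probe sets it held for 15.1%. Brightness went with this pattern. In the brightest 1% of probe sets, 11 of which were members, the other 536 probe sets had replicate 1 as the lowest array of both groups in 72.0%. Their median deviation from the mean over 6 arrays was -0.08 in replicate 1, -0.01 in replicate 2 and 0.12 in replicate 3 of the NME2-depleted arrays, and -0.11, 0.01 and 0.08 in the control arrays in the same order (log2 scale).

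For the 11 members in the brightest 1% the corresponding deviations, again in replicate order, were -0.18, -0.02 and 0.12 for NME2-depleted and -0.14, 0.10 and 0.11 for control arrays. Over all tested probe sets they stayed between -0.0075 and 0.02. The median difference between groups was -0.05 for these 11 members and 0.01 for the other 536, of which 41.8% had a lower mean in NME2-depleted arrays. The part of brightness in the members' differences was not tested.

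**Figure D3:**
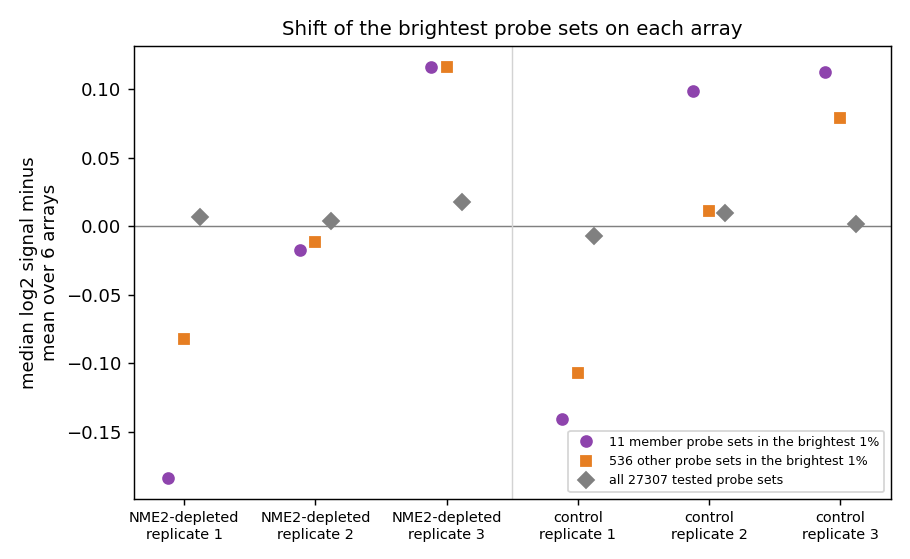
Median log2 signal minus the mean over 6 arrays (vertical axis) on each array, for 11 member probe sets and 536 other probe sets in the brightest 1% and for all 27307 tested. Replicate 1 is the lowest array of each group for both bright sets, at -0.18 and -0.14 for the members, while the medians over all tested probe sets stay near 0.

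Relatives of these enzymes, 1 value per gene from its brightest tested probe set, held no gene past the threshold either. Of all 12406 genes, 18 were higher and 49 lower at that threshold (limma). A lower mean was seen for 6182 of the 12406, and an unadjusted p under 0.05 for 1862. Among 4 tested aldo-keto reductases outside the members, all 4 means were lower in NME2-depleted arrays, the median was -0.29, and 1 had an unadjusted p under 0.05. AKR7A2, which reduces aflatoxin dialdehyde and succinic semialdehyde, had 1594, 1747 and 1677 in NME2-depleted arrays and 1935, 2405 and 2210 in control arrays. The groups did not overlap, and its log2 difference was -0.38 (SE 0.09, adjusted p = 0.112). AKR1C4, the liver member of the AKR1C cluster, was dim. It had 148, 180.5 and 131.6 in NME2-depleted arrays and 162.3, 220.2 and 230.4 in control arrays. These overlapped, with a log2 difference of -0.41 (SE 0.22, adjusted p = 0.454). AKR7A3 had a difference of -0.16 without overlap (SE 0.13, adjusted p = 0.648).

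The 14 tested aldehyde dehydrogenases outside the members were spread around 0, with 6 lower and 8 higher means and a median of 0.01. Of the 14, 3 had an unadjusted p under 0.05, against 1862 of all 12406 genes. The 3 of lowest p all had higher means. ALDH1L2, the mitochondrial formyltetrahydrofolate dehydrogenase, had 953.9, 752.5 and 784.2 in NME2-depleted arrays and 587.5, 609.7 and 575.7 in control arrays, without overlap (log2 difference 0.48, SE 0.12, adjusted p = 0.109). ALDH6A1, which degrades valine and pyrimidine products, had 0.37 (adjusted p = 0.128), and ALDH18A1, which starts proline synthesis, had 0.30 (adjusted p = 0.228). Of 6 other carbonyl and quinone reductases 3 had a lower and 3 a higher mean, 0 had an unadjusted p under 0.05, and the median was 0.03. NQO2, the close relative of NQO1, had a difference of 0.18 (adjusted p = 0.508), CRYZ had 0.08 and CBR1 -0.12.

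Other NRF2 targets had mostly lower means without a gene past the threshold. Of 26 tested, 21 had a lower and 5 a higher mean, the median was -0.09, and 6 had an unadjusted p under 0.05. Over all 12406 genes 6182 had a lower mean, the median was 0.00064 and 1862 had such a p. Whether the count of 21 depended on single arrays, as the members' count did, was not tested. In the glutathione and thioredoxin group (12 tested, median -0.06) SRXN1, which repairs oxidised peroxiredoxins, had 6203, 6054 and 6593 in NME2-depleted arrays and 7163, 7474 and 7884 in control arrays. These did not overlap, with a log2 difference of -0.26 (SE 0.07, adjusted p = 0.138). TXNRD1, the thioredoxin reductase, had -0.25 (adjusted p = 0.303), and SLC7A11, the cystine transporter, had 0.25 in the opposite direction (adjusted p = 0.305).

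All 5 tested genes of NADPH supply had a lower mean (median -0.10), with the pentose phosphate enzymes TKT, TALDO1 and PGD at -0.18, -0.17 and -0.09 and adjusted p-values of 0.354, 0.39 and 0.682. In the group for conjugation, export, haem and iron, 8 of 9 had a lower mean (median -0.08). The drug exporter ABCC1 and the haem oxygenase HMOX1 had -0.24 and -0.24 (adjusted p = 0.205 and 0.342), and UGDH, which makes UDP-glucuronic acid, had 0.12 (adjusted p = 0.537). Of 10 tested partners and turnover factors of NRF2, 7 had a higher and 3 a lower mean, with a median of 0.06. An unadjusted p under 0.05 was seen for 2 of the 10, against 1862 of all 12406 genes. BTRC, an F-box protein that marks NRF2 for degradation independently of KEAP1, had 0.38 (adjusted p = 0.243). The small MAF proteins MAFF and MAFG had 0.36 and -0.20 (adjusted p = 0.282 and 0.572).

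**Figure D4:**
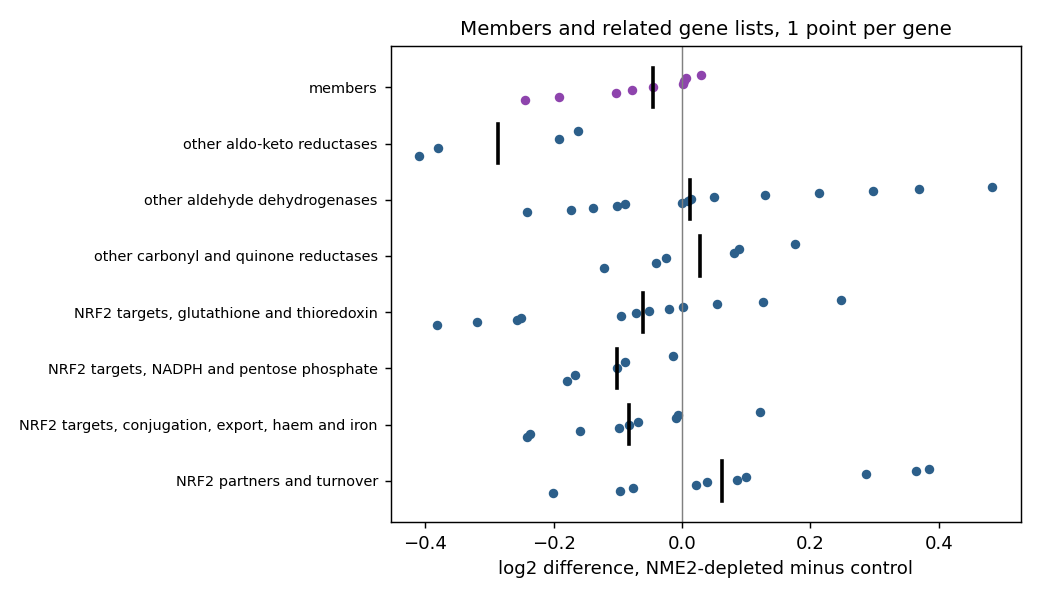
Log2 difference, NME2-depleted minus control, of the 9 measured member genes and of 7 related gene lists, with 1 point per gene from its brightest tested probe set and a black bar at the median. No gene passed an adjusted p of 0.05, and members lie between -0.24 and 0.03.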

How the data were processed

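RNA of 6 A549 samples, 3 per group by sample title, was hybridised by the authors to 1 Affymetrix HG-U133 Plus 2.0 array each. The deposited values are linear intensity signals per probe set, made with GCOS 1.1.1 according to the submitters' processing notes; the values showed scaling to a trimmed mean of 500.1 on every array (2% trimmed at each end). Such scaling hides any change shared by all transcripts. Detection calls were not used here, and the number of arrays limits precision.

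Of 54675 probe sets, 62 controls were left out. Signals under 1 were set to 1 and log2 was taken. The 27307 probe sets whose mean log2 signal reached the overall median (a signal of 71.7) entered a limma fit (limma 3.58.1, R 4.3.3, lmFit and trended eBayes), two-sided, with Benjamini-Hochberg adjustment over all of them and a threshold of 0.05; the procedure was tested on simulated data. Symbols came from the platform annotation of 2016 (41091 probe sets with 1 symbol, 1801 with several, 11721 with none), and 0 changed on lookup by gene identifier. Promoter windows are from RefSeq.

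Members and gene lists were chosen with earlier results of these data known. Named genes were all members, the silenced gene and, from each other list, up to 3 of lowest p where none passed; the division into 14 bright and 4 dim member probe sets was made after their values were seen. Alternatives were other array scalings, an offset of 16, other filters, array weights, omission of each array and a block for the replicate number. Further ones were other variance models, a plain t-test, shared probe sets left out and 1 value per gene. The t-test used the threshold of 0.005 that the methods name for the GCOS change test, which needs probe-level data and was not rerun.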

Additional observations from a re-analysis of the deposited data

How the results depend on the processing

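None of the member probe sets passed in 17 of the 19 other settings tried, which include each array left out; 1 passed with quantile normalization (ALDH3A1) and 2 with the replicate block (ALDH3A1, adjusted p = 0.0283, and NQO1 201468_s_at, adjusted p = 0.0435). Replicate numbers were not taken as pairs, because same-numbered arrays correlated weakly. Their deviations from the group means correlated at 0.07 to 0.11 across all tested probe sets. Each array nevertheless correlated best with its own number (unlike numbers -0.08 to 0.01). The correlation was not computed for bright probe sets alone. Among the 14 bright members, 13 had replicate 1 as the lowest array of both groups, so it need not hold for them. The count over all probe sets, 108, depended on the setting. It was 464 with the replicate block, 30 with no filter on dim probe sets and 192 with a filter at the 75th percentile. With no intensity trend it was 0 (3130 at an unadjusted p under 0.05). The plain t-test, which is not the change test named in the methods, gave 504 at an unadjusted p under 0.005. After adjustment that t-test gave 0 (3065 at an unadjusted p under 0.05). With 1 array left out the limma count ran from 8 to 63. It was 13, 36 and 9 without NME2-depleted replicates 1, 2 and 3 and 63, 28 and 8 without control replicates 1, 2 and 3.

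Differences near 0 changed sign. Quantile normalization gave -0.00089 for AKR1C1 204151_x_at and -0.0072 for AKR1C2 209699_x_at. Median centring, which moved the median of all tested probe sets to -0.04, gave -0.0468 and -0.0421 for these, -0.0456 for ALDH1A1 and -0.0192 for NFE2L2 201146_at. Cyclic loess gave -0.0059, -0.0014 and -0.0044 for the first 2 and ALDH1A1, and array weights -0.0012, -0.00041 and -0.0102. With 1 array left out, differences ran from -0.198 to 0.0040 for AKR1B10, from -0.0818 to 0.0817 for AKR1C1 204151_x_at, from -0.108 to 0.0513 for 216594_x_at, from -0.0127 to 0.219 for 217626_at, from -0.0875 to 0.0831 for AKR1C2 209699_x_at, from -0.138 to 0.0302 for 211653_x_at, from -0.136 to 0.0348 for AKR1C3, from -0.0782 to 0.0593 for ALDH1A1 and from -0.0363 to 0.0822 for NFE2L2 201146_at. The cause was not tested. The median over the 18 tested members ran from -0.15 to 0.02 with 1 array left out. ALDH3A1, KEAP1 and all 3 NQO1 probe sets kept their sign in every setting that gave them a value.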

Other observations

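Probe sets that carry a member's symbol together with another gene's were outside the rule, and there were 2. The probe set annotated to both AKR1C2 and AKR1C1 (1555854_at) had 8643, 8061 and 8916 in NME2-depleted arrays and 9597, 10349 and 10058 in control arrays. Every depleted array lay below every control array, with a log2 difference of -0.23 (SE 0.07, limma adjusted p = 0.182). The bright probe sets with AKR1C1 or AKR1C2 as their only symbol had differences between -0.05 and 0.08. The probe set annotated to NFE2L2 and CSNK2A1 had overlapping groups and a difference of -0.24 (SE 0.15, adjusted p = 0.543).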
